A study of Mus musculus with 20 samples.

Results

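The genes described here carry the hormonal control of phosphate and vitamin D in the kidney. They are the co-receptor klotho (Kl) and the receptor Fgfr1, the vitamin D hydroxylases Cyp27b1 and Cyp24a1 with the vitamin D receptor Vdr, the sodium-phosphate cotransporters Slc34a1, Slc34a3, Slc20a1 and Slc20a2, and the parathyroid hormone receptor Pth1r. They were chosen by symbol, and all 10 were found among the 55471 gene identifiers of the count table. RNA of the whole kidney was sequenced in 20 samples from female mice aged 2 months, in separate experiments on TERT, the catalytic subunit of telomerase. In the i-TERTci experiment, 3 samples of i-TERTci mice, which carry the actin-rtTA+ and tetOp-TERTci+ transgenes and switch on a catalytically inactive TERT in every tissue under doxycycline, were set against 4 samples of mice with the actin-rtTA+ transgene alone. Both groups, of mixed background, received doxycycline for 15 days and were examined on reversal day 8 (R8), 8 days after its withdrawal. In the Adriamycin (ADR) experiment, mice received 12 mg/kg of ADR, a podocyte toxin, or saline, and kidneys were collected 18 days later. It held 3 samples of TERT KO/KO mice given ADR and 3 of those given saline, and 3 samples of TERT WT/WT littermates given ADR and 4 of those given saline, on a BALB/c background. The TERT KO/KO mice were of the first generation without telomerase, so that they lacked TERT without the shortened telomeres of later generations.

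Klotho makes the kidney sensitive to FGF23, a hormone from bone: bound to Fgfr1 it forms the FGF23 receptor of the tubule. FGF23 signalling lowers phosphate reabsorption by the cotransporters Slc34a1 and Slc34a3 of the proximal tubule brush border, represses Cyp27b1, which makes the active hormone calcitriol, and induces Cyp24a1, which degrades it. Parathyroid hormone, acting through Pth1r on the same cells, also withdraws the phosphate cotransporters but induces Cyp27b1, and calcitriol acting through Vdr induces Cyp24a1. Loss of renal klotho is a long-known feature of kidney disease.

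The libraries held 39323498 to 48399322 counts each, with 21092 to 25991 genes counted. In 1 library, that of replicate 2 of the TERT KO/KO ADR group, the hepatocyte gene Alb took 26.1% of all counts, against at most 0.0083% in any other library, and the podocyte gene Nphs1 had 2 counts, against at least 167 elsewhere. This library was left out of every level and test below, so that the TERT KO/KO ADR group held 2 libraries. With it kept, Slc20a1 in TERT WT/WT mice was the only call of the 10 genes that remained in the ADR experiment (edgeR adjusted p = 0.0477). Tert had 230 to 1086 counts in i-TERTci kidneys and 87 to 164 in actin-rtTA+ kidneys. It had 51 to 210 counts in the other 5 TERT KO/KO libraries and 122 to 379 in TERT WT/WT libraries, and counts over a whole gene do not show whether a deleted part was read. The summed level of 10 proximal tubule markers, in CPM (counts scaled to a common library total) corrected by TMM factors, was 2150 to 11720 in i-TERTci kidneys and 11510 to 12520 in actin-rtTA+ kidneys. After ADR the sum was 4484 to 5772 in TERT KO/KO kidneys, against 10170 to 11480 after saline, and 2394 to 9223 in TERT WT/WT kidneys, against 10840 to 11630 after saline. None of the 10 markers was at 0 in any of these groups. The 4 markers of injured tubules summed to 252 to 1106 CPM in i-TERTci kidneys, against 136 to 206 CPM in actin-rtTA+ kidneys. After ADR they summed to 487 to 1286 CPM in TERT KO/KO and 401 to 1891 CPM in TERT WT/WT kidneys, against 136 to 168 CPM and 144 to 256 CPM after saline. The highest proximal tubule sums among the i-TERTci and ADR kidneys were those of i-TERTci replicate 2 (11720) and TERT WT/WT ADR replicate 1 (9223).

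Per kilobase of exon, Slc34a1 was the most abundant of the 10 genes, Pth1r came next and Cyp27b1 was the least abundant in each of the 6 groups. The mean over 19 libraries, pooled over these groups, was 896.5 CPM per kilobase for Slc34a1, 192 for Pth1r, 47.0 for Kl, 41.4 for Vdr, 28.1 for Slc34a3, 23.6 for Cyp24a1, 8.10 for Fgfr1, 7.48 for Slc20a2, 5.94 for Slc20a1 and 3.02 for Cyp27b1. The order of the other genes differed between groups: Cyp24a1 averaged 8.76 CPM per kilobase in TERT KO/KO kidneys after ADR, below Fgfr1 at 8.94, and 72.3 in TERT WT/WT kidneys after ADR, above Kl at 27.1. The steadiest gene was Slc20a2, with a 1.40-fold range between its lowest and its highest library. The widest range was that of Cyp24a1, at 33.9-fold, followed by Cyp27b1 at 20.1-fold and Slc34a3 at 11.4-fold.

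**Figure D1:**
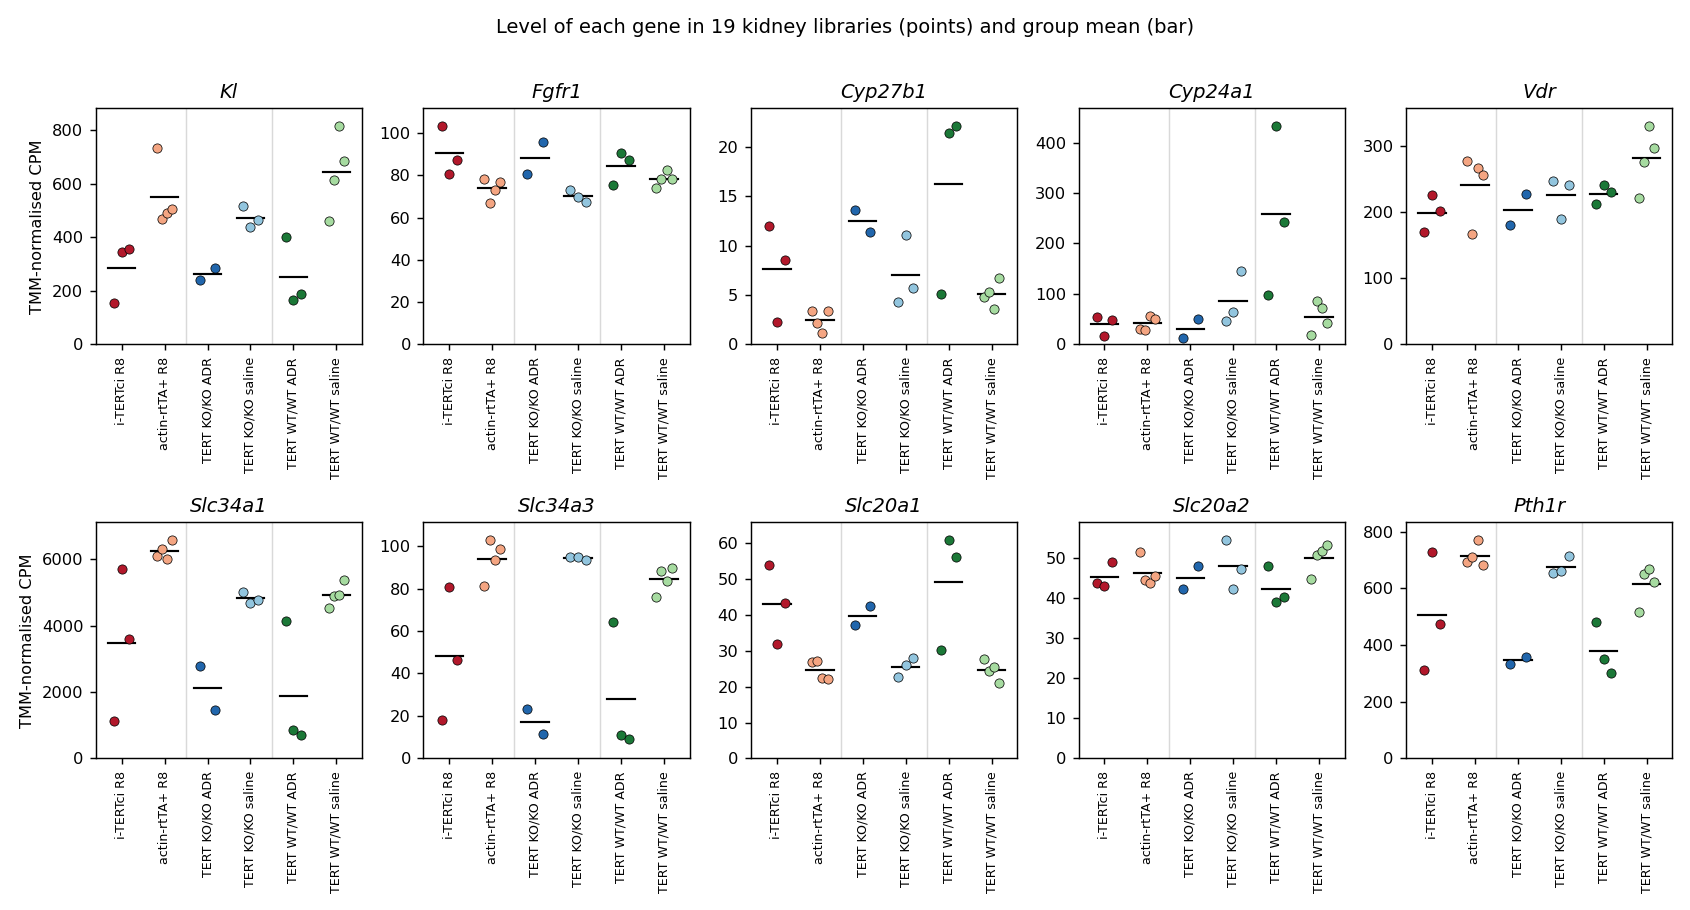
TMM-normalised CPM of each of the 10 genes (vertical axes, each from 0) in 19 kidney libraries (points) of 6 groups, with the group mean as a bar. Kl, Slc34a1, Slc34a3 and Pth1r lay lower, and Slc20a1 higher, in most i-TERTci and ADR kidneys than in actin-rtTA+ and saline kidneys, while Cyp24a1 was highest in 2 TERT WT/WT kidneys after ADR (433 and 242 CPM).

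Tests were made with edgeR across all genes, and a gene was called at a Benjamini-Hochberg adjusted p under 0.05. ADR against saline in TERT WT/WT mice called 5 of the 10 genes. Cyp27b1, Cyp24a1 and Slc20a1 rose, where 15.2% of all genes tested were called higher, and Kl and Pth1r fell, where 12% were called lower. In TERT KO/KO mice ADR called 1 gene, Pth1r, which fell, where 1.43% of all genes were called lower and 3.83% higher. Between i-TERTci and actin-rtTA+ mice none of the 10 genes was called by edgeR, in a comparison in which only 1 gene of 17745 was called at all (0.00564% higher, 0% lower), while 5 of the 10 had an unadjusted p under 0.05, as did 22.4% of all genes. At that unadjusted level 7 of the 10 passed after ADR in TERT WT/WT mice, against 40.9% of all genes, and 5 in TERT KO/KO mice, against 24.1%. DESeq2 called Cyp27b1 and Slc20a1 higher and Kl lower in i-TERTci kidneys, where it called 8.52% of genes higher and 2.38% lower. After ADR it called 3 of the 10 higher and 3 lower in TERT WT/WT mice (16.6% and 14.4% of all genes), and 0 higher and 1 lower in TERT KO/KO mice (7.06% and 4.45%). DESeq2 gave no adjusted p for Slc34a3 in the ADR experiment, which is in none of its counts there. The share of genes without overlap between the libraries of the groups compared was also counted. In i-TERTci kidneys 2 of the 10 genes lay wholly above and 3 wholly below actin-rtTA+ kidneys, where 8.76% and 8.53% of all genes did. After ADR 2 genes lay wholly above and 4 wholly below saline in TERT WT/WT kidneys, where 17.7% and 15.8% of all genes did. In TERT KO/KO kidneys the numbers were 3 and 4, where 21.2% and 21.1% of all genes did so with 2 libraries against 3. Since whole kidneys were measured, fewer cells of a type and less RNA per cell cannot be told apart in any of these values.

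**Figure D2:**
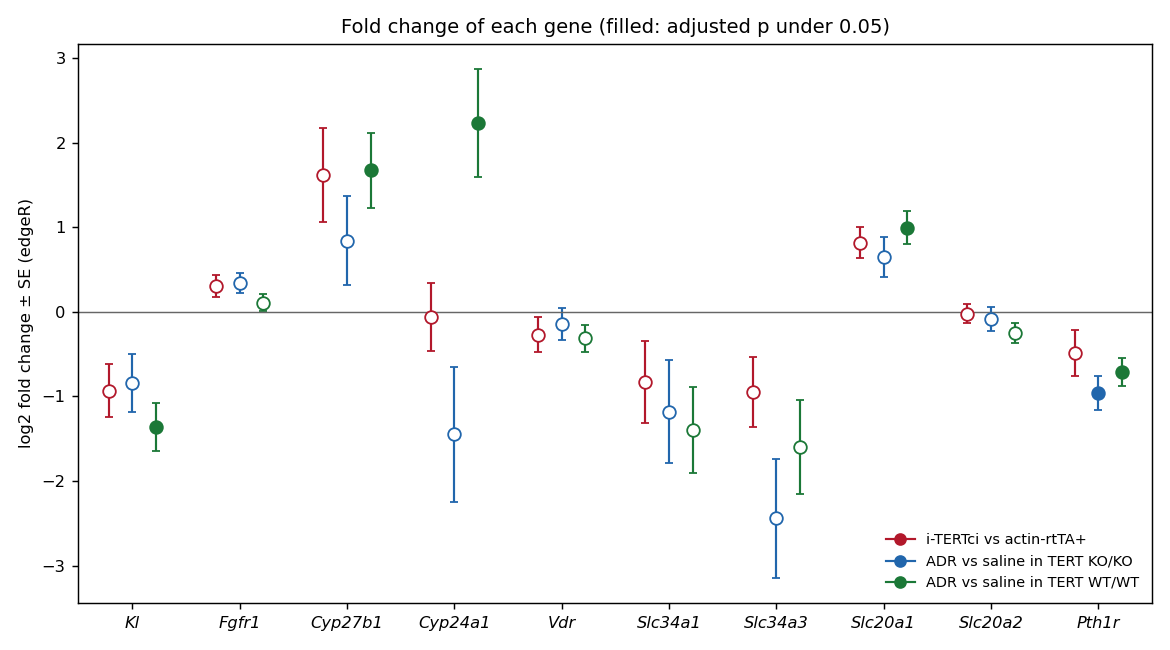
Log2 fold change of each gene by edgeR, with its standard error, for i-TERTci against actin-rtTA+ mice (red), ADR against saline in TERT KO/KO mice (blue) and ADR against saline in TERT WT/WT mice (green). Filled points mark an adjusted p under 0.05. Kl, Slc34a1, Slc34a3 and Pth1r were below 0 and Cyp27b1 and Slc20a1 above 0 in all 3 comparisons, whereas Cyp24a1 was at 2.23 in TERT WT/WT mice and at -1.45 in TERT KO/KO mice.

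Kl lies on chromosome 5 (chr5:150952607-150993817, plus strand, mm10, here with GENCODE M21 coordinates), and no other annotated exon overlaps its exons. The 250 bases before its start, on GRCm38 (chr5:150952357-150952606, plus strand, RefSeq), are shown because Kl was 1 of the genes called in TERT WT/WT mice given ADR. Capitals mark the GC box letters GGGCGG, read on either strand.
Kl: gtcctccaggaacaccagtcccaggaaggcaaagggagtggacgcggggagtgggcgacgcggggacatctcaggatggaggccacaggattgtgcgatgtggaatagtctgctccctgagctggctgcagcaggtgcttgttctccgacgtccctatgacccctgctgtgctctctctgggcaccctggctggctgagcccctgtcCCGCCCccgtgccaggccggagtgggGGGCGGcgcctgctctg
GGGCGG matched at 2 places, 43 to 38 and 17 to 12 bases before the start, and 32.7% of all 32851 mouse promoter windows of this length held it. The TATA box core TATAA, which 22.8% of all windows held, had no match in this window. Nor did the nuclear receptor half-site AGGTCA, which 14.02% of windows held, the HNF1 half-site or the CCAAT box.

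Kl fell in ADR kidneys of TERT WT/WT mice. It measured 402, 168 and 189 CPM after ADR, against 460.4, 615, 817 and 685 CPM after saline in TERT WT/WT mice. Every ADR kidney lay below every saline kidney, and ADR replicate 1 lay nearest to them. The log2 fold change was -1.36 ± 0.29 (SE), a level 2.56-fold lower after ADR (edgeR adjusted p = 0.00646), and it stayed called when any 1 of the 12 libraries was left out, with edgeR adjusted p-values of 2e-05 to 0.0401. In TERT KO/KO mice Kl measured 241 and 285 CPM after ADR, against 518, 438 and 464 CPM after saline. These groups did not overlap either, but the change of -0.84 ± 0.34 was not called (edgeR adjusted p = 0.151). It was called by edgeR with only these groups in the fit (-0.85, adjusted p = 0.0205) and without TERT WT/WT ADR replicate 1 (-0.84, adjusted p = 0.0134). In i-TERTci mice Kl was at 156, 346 and 356 CPM, against 733, 470.1, 490 and 505 CPM in actin-rtTA+ mice. All 3 i-TERTci kidneys lay below all 4 actin-rtTA+ kidneys. The change of -0.93 ± 0.32 did not pass by edgeR (adjusted p = 0.14) and passed by DESeq2 (adjusted p = 0.0281).

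In order of group means from low to high, Kl averaged 253 ± 129.9 CPM (SD) in TERT WT/WT ADR, 263 ± 30.7 in TERT KO/KO ADR, 286 ± 113 in i-TERTci, 473 ± 40.9 in TERT KO/KO saline, 549 ± 123 in actin-rtTA+ and 644 ± 148.5 in TERT WT/WT saline kidneys. The first 3 groups overlapped one another, and so did the last 3. Kl was at 346 CPM in i-TERTci replicate 2, below every actin-rtTA+ kidney, in the library whose proximal tubule marker sum (11720) was within the actin-rtTA+ range. The 3 markers of the distal convoluted tubule summed to 642.5 CPM there, and to 290 to 642.5 CPM in all i-TERTci kidneys. In actin-rtTA+ kidneys they summed to 723 to 917 CPM. In TERT KO/KO kidneys the sum was 449 to 657 CPM after ADR, against 543.5 to 758 CPM after saline. In TERT WT/WT kidneys it was 454 to 736 CPM, against 838 to 907 CPM. All 3 markers had negative changes in i-TERTci mice, and after ADR 2 had negative changes and 1 a positive change in each genotype. The part of distal convoluted tubule cells in the Kl values was not tested.

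Fgfr1, the receptor that klotho joins (chr8:25513654-25575718, plus strand), was called in no comparison. It ranged from 67.2 to 104 CPM over the 19 libraries. All 3 i-TERTci kidneys (80.7 to 104 CPM) lay above all 4 actin-rtTA+ kidneys (67.2 to 78.4 CPM), and the change of 0.31 ± 0.13 was not called (edgeR adjusted p = 0.202). Both TERT KO/KO kidneys after ADR (80.8 and 95.9 CPM) lay above the saline ones (67.5 to 72.9 CPM), at 0.34 ± 0.12 (edgeR adjusted p = 0.111), whereas the TERT WT/WT groups overlapped at 0.11 ± 0.10 (edgeR adjusted p = 0.458). An antisense gene, Gm16159, covers 164 of its exon bases, and whether strand was used in counting is not given in the sources used here.

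Cyp27b1, the 1-alpha-hydroxylase that makes calcitriol (chr10:127048250-127053006, plus strand), was the least abundant of the 10 genes and rose after ADR in TERT WT/WT mice. The 250 bases before its start, on GRCm38 (chr10:127047996-127048245, plus strand, RefSeq), are shown because Cyp27b1 was called in the opposite direction to Kl. Capitals mark CCAAT, read on either strand.
Cyp27b1: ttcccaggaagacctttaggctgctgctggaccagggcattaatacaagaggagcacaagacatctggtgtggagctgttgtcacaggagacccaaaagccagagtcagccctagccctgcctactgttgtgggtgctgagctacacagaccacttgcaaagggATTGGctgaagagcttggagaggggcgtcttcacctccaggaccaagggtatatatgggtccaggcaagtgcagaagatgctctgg
CCAAT matched once, on the minus strand, 86 to 82 bases before the start, and 33.9% of all windows held it. The TATA box core letters TATAA, the GC box, the nuclear receptor half-site and the HNF1 half-site had no match. Only TATAA was searched for the TATA box, and the window holds tatatat, which that search does not match.

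In TERT WT/WT mice Cyp27b1 measured 5.15, 21.3 and 22.1 CPM after ADR, against 4.76, 5.33, 3.58 and 6.72 CPM after saline. ADR replicates 2 and 3 stood above every saline kidney, and ADR replicate 1 lay among them. The log2 fold change was 1.67 ± 0.44, or 3.18-fold higher (edgeR adjusted p = 0.0177). The edgeR call was lost without ADR replicate 2 (adjusted p = 0.0832), without ADR replicate 3 (0.0702) or without saline replicate 3 (0.0548), and with no filter on low counts (0.0721), while the change stayed between 1.38 and 2.10 over all leave-one-out fits.

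Cyp27b1 in TERT KO/KO mice was at 13.6 and 11.4 CPM after ADR, against 4.26, 11.1 and 5.71 CPM after saline. Both ADR kidneys lay above the saline ones, the lower of them by a narrow margin over saline replicate 2, and the change of 0.84 ± 0.52 was not called (edgeR adjusted p = 0.341). In i-TERTci mice it was at 12.0, 2.30 and 8.53 CPM, against 3.41, 2.12, 1.10 and 3.40 CPM in actin-rtTA+ mice. Replicates 1 and 3 stood above every actin-rtTA+ kidney and replicate 2 lay within their range. The change was 1.62 ± 0.56 (edgeR adjusted p = 0.145, DESeq2 adjusted p = 0.035), and 2.04 without i-TERTci replicate 2 (edgeR adjusted p = 0.00597). Macrophages are known to express Cyp27b1 too, and their 5 markers, none at 0, summed to 160 to 1082 CPM in i-TERTci kidneys, against 110.2 to 171 CPM in actin-rtTA+ kidneys. After ADR they summed to 139 to 407 CPM in TERT KO/KO kidneys, against 142 to 171 CPM after saline. In TERT WT/WT kidneys they summed to 249 to 431 CPM, against 136 to 181 CPM after saline. By edgeR 2 and 4 of the 5 were called higher, where 3.83% and 15.2% of all genes were, and 1 had a negative change in each genotype. In i-TERTci kidneys 0 of the 5 were called and all 5 changes were positive. The sum was 139 CPM in TERT KO/KO ADR replicate 1, with Cyp27b1 at 13.6 CPM, and 407 CPM in replicate 3, with Cyp27b1 at 11.4 CPM. The part of macrophages in the Cyp27b1 values was not tested.

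Cyp24a1, the 24-hydroxylase that inactivates vitamin D (chr2:170482708-170497145, minus strand), rose with ADR in TERT WT/WT mice and was the gene of the 10 in which the genotypes lay farthest apart after ADR. In TERT WT/WT mice it measured 97.2, 433 and 242 CPM after ADR, against 18.7, 86.6, 72.0 and 42.2 CPM after saline. All 3 ADR kidneys lay above all 4 saline kidneys, replicate 1 only just. The log2 fold change was 2.23 ± 0.64, or 4.68-fold higher (edgeR adjusted p = 0.0246). By edgeR the call was lost without ADR replicate 2 (1.63, adjusted p = 0.129), without ADR replicate 3 (adjusted p = 0.0536), without saline replicate 4 (adjusted p = 0.0678) and with no filter on low counts (adjusted p = 0.0992).

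Cyp24a1 in TERT KO/KO mice was at 12.8 and 49.6 CPM after ADR, against 47.1, 64.5 and 146 CPM after saline. The groups overlapped, ADR replicate 1 being the lowest of all 19 libraries, and the change of -1.45 ± 0.80 was not called (edgeR adjusted p = 0.285). Set against TERT WT/WT mice after ADR, both TERT KO/KO kidneys lay below all 3, with a log2 difference of -3.04 ± 0.86, or 8.21-fold lower in TERT KO/KO mice. Its unadjusted p was 0.00425 and its adjusted p 0.366 by edgeR, and its adjusted p was 0.0425 by DESeq2. The interaction of genotype and ADR, as the change in TERT KO/KO minus that in TERT WT/WT mice, was -3.67 ± 1.04, with an unadjusted p of 0.00433 and an adjusted p of 0.297 by edgeR and 0.0625 by DESeq2. It was therefore not called.

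The i-TERTci kidneys showed no such rise. Cyp24a1 was at 53.7, 17.1 and 47.8 CPM in i-TERTci mice, against 30.8, 28.8, 57.0 and 50.7 CPM in actin-rtTA+ mice. The groups overlapped, and the change was -0.06 ± 0.40 (edgeR adjusted p = 0.946). The i-TERTci change minus the change that ADR gave in TERT WT/WT mice was -2.31 ± 0.85 on the log2 scale and was not called (unadjusted p = 0.0149, edgeR adjusted p = 0.606). The i-TERTci and ADR experiments also differed in mouse background, doxycycline and time of collection, which cannot be told apart here from the kind of injury. The ratio of Cyp24a1 to Cyp27b1 counts was 4.47 to 7.41 in i-TERTci kidneys and 9.02 to 51.8 in actin-rtTA+ kidneys. After ADR it was 0.94 to 4.36 in TERT KO/KO and 11.0 to 20.3 in TERT WT/WT kidneys, against 5.81 to 25.5 and 3.93 to 20.1 after saline in the same genotypes. The ratio was thus below every control of its experiment and genotype in all i-TERTci and TERT KO/KO ADR kidneys, while it overlapped saline in TERT WT/WT kidneys. No test was made of it.

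Vdr, the nuclear receptor for calcitriol (chr15:97854425-97910630, minus strand), stayed within a 1.97-fold range, from 167 to 330 CPM. Every group overlapped its control, and no change was called. The estimates were -0.27 ± 0.21 in i-TERTci mice (edgeR adjusted p = 0.471), -0.14 ± 0.19 after ADR in TERT KO/KO mice (0.681) and -0.31 ± 0.16 after ADR in TERT WT/WT mice (0.163).

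Slc34a1, which encodes NaPi-IIa, the main phosphate cotransporter of the mouse proximal tubule (chr13:55398187-55415592, plus strand), spread widely within the i-TERTci and ADR groups. The 250 bases before its RefSeq start, on GRCm38 (chr13:55399398-55399647, plus strand), lie within the longer GENCODE gene, outside its exons, and are shown as those of the most abundant of the 10 genes. Capitals mark the HNF1 half-site letters GTTAAT, read on either strand, HNF1 being a transcription factor of the proximal tubule.
Slc34a1: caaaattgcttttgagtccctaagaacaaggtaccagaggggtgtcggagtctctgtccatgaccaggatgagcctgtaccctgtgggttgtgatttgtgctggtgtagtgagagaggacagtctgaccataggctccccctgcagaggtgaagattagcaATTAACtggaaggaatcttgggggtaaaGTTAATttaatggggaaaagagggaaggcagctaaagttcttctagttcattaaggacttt
GTTAAT matched 89 to 84 bases before the start on the minus strand and 61 to 56 bases before it on the plus strand, and 6.43% of all windows held it. No other window of the 7 genes of the set in the promoter table held GTTAAT.

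In TERT WT/WT mice Slc34a1 measured 4144, 846 and 692 CPM after ADR, against 4542, 4909, 4939 and 5369 CPM after saline. All 3 ADR kidneys lay below all 4 saline kidneys, but replicate 1 stood near them and replicates 2 and 3 far below. With that spread the log2 fold change of -1.39 ± 0.51 was not called (edgeR adjusted p = 0.061). It was called by DESeq2 (0.0295) and by edgeR without ADR replicate 1, where the change was -2.68 (adjusted p = 4e-06). The TERT KO/KO mice had 2789 and 1461 CPM of Slc34a1 after ADR, against 5007, 4687 and 4780 CPM after saline. Both lay below every saline kidney, at -1.18 ± 0.61 (edgeR adjusted p = 0.255), and the change was called when TERT WT/WT ADR replicate 1 was left out of the fit of the ADR experiment (edgeR adjusted p = 0.00408) or with only these groups in it (0.0435). In i-TERTci mice it was at 1119, 5720 and 3617 CPM, against 6111, 6309, 6012 and 6592 CPM in actin-rtTA+ mice. All 3 lay below the actin-rtTA+ kidneys, replicate 2 by little, and the change was -0.83 ± 0.48 (edgeR adjusted p = 0.343). Except for i-TERTci replicate 1, which had the lowest proximal tubule marker sum (2150) and the third lowest Slc34a1, the i-TERTci and ADR kidneys stood in the same order by Slc34a1 as by that sum. All 10 markers had negative changes in the 3 comparisons, with 5 called lower in TERT WT/WT mice and 0 in the others, and their part in the Slc34a1 values was not tested. The exons of Slc34a1 overlap those of Pfn3, on the other strand, over 545 bases.

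**Figure D3:**
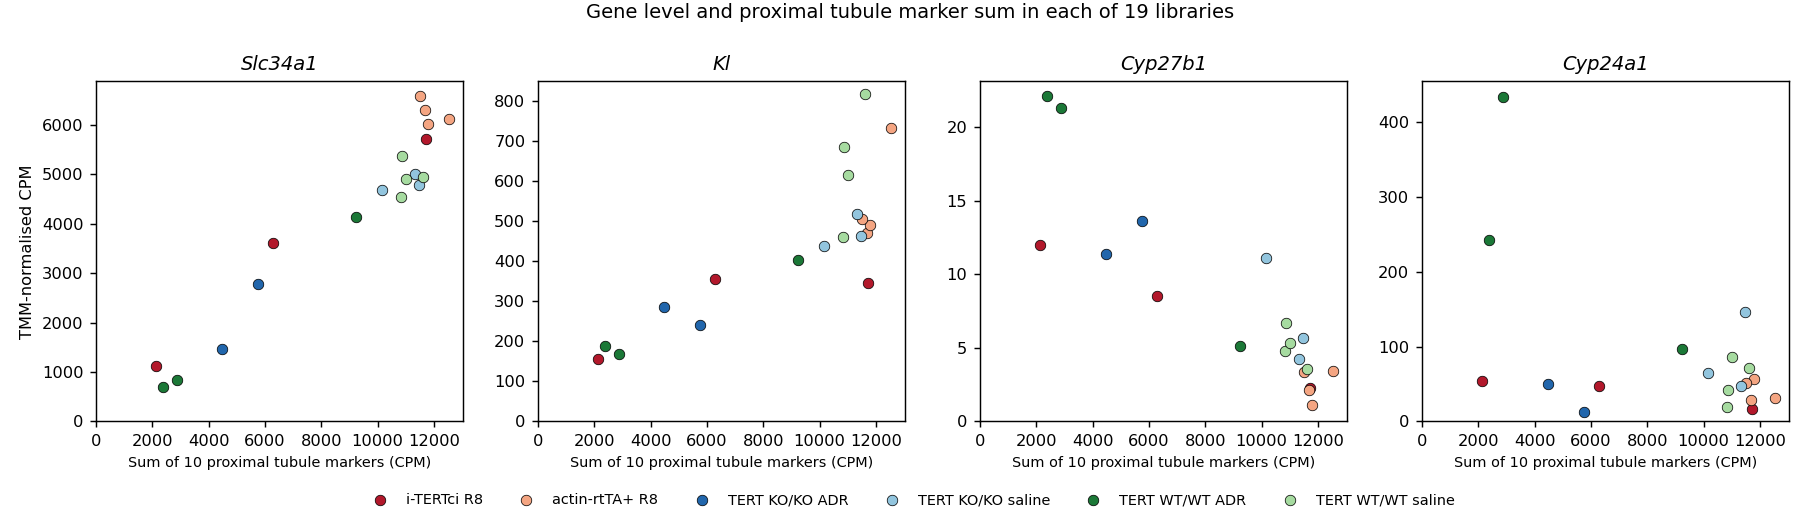
TMM-normalised CPM of Slc34a1, Kl, Cyp27b1 and Cyp24a1 (vertical axes) against the summed CPM of 10 proximal tubule markers (horizontal axis) in each of 19 libraries, coloured by group. Slc34a1 and Kl were low, and Cyp27b1 mostly high, where the marker sum was low, and Cyp24a1 was high in only 2 of the libraries with a low sum, TERT WT/WT ADR replicates 2 and 3.

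Slc34a3, which encodes NaPi-IIc, the second cotransporter of the brush border (chr2:25228898-25234364, minus strand), was less abundant than Slc34a1. Its changes after ADR and in i-TERTci mice had the same sign as those of Slc34a1. It measured 23.1 and 11.6 CPM after ADR in TERT KO/KO mice, against 94.7, 95.0 and 93.5 CPM after saline. In TERT WT/WT mice it measured 64.4, 11.0 and 9.02 CPM after ADR, against 75.8, 88.1, 83.4 and 89.8 CPM after saline. The groups did not overlap in either genotype, and ADR replicate 1 of the TERT WT/WT mice was again the nearest to saline. The changes were -2.44 ± 0.70 in TERT KO/KO (edgeR adjusted p = 0.0644) and -1.60 ± 0.56 in TERT WT/WT mice (edgeR adjusted p = 0.0515), neither of them called. Without TERT WT/WT ADR replicate 1 both were called by edgeR, at -2.44 (adjusted p = 3.5e-05) and -3.08 (adjusted p = 1e-06). The TERT KO/KO change was also called without TERT WT/WT ADR replicate 2 (edgeR adjusted p = 0.0448) or 3 (0.0279), and with only the groups compared in the fit (0.00315). In i-TERTci mice it was at 18.0, 80.9 and 46.3 CPM, against 81.3, 103, 93.3 and 98.4 CPM in actin-rtTA+ mice. Replicate 2 lay just under the lowest actin-rtTA+ kidney, and the change was -0.95 ± 0.41 (edgeR adjusted p = 0.22), or -1.53 without replicate 2 (adjusted p = 0.0128).

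Slc20a1, which encodes the widely expressed cotransporter PiT-1 (chr2:129198764-129211616, plus strand), moved the other way. It rose to 30.2, 60.9 and 56.1 CPM after ADR in TERT WT/WT mice, against 27.6, 24.3, 25.5 and 21.03 CPM after saline. The groups did not overlap, and replicate 1 was again the nearest to saline. The log2 fold change was 0.99 ± 0.20, or 1.99-fold higher (edgeR adjusted p = 0.00497), and it stayed called without any 1 library and under every other setting tried, with adjusted p-values up to 0.0477. Levels in TERT KO/KO mice were 37.1 and 42.4 CPM after ADR, against 22.7, 25.9 and 28.1 CPM after saline, a change of 0.65 ± 0.23 (edgeR adjusted p = 0.119) that was called with only these groups in the fit (adjusted p = 0.0295) and without TERT WT/WT ADR replicate 1 (0.00518). In i-TERTci mice it was at 53.9, 31.8 and 43.4 CPM, against 26.8, 27.3, 22.4 and 22.3 CPM in actin-rtTA+ mice, a change of 0.82 ± 0.18 (edgeR adjusted p = 0.0758, DESeq2 adjusted p = 0.00436). No i-TERTci or TERT KO/KO ADR kidney overlapped its controls. Exons of Gm4430 and 9830144P21Rik, on the other strand, cover 280 and 452 of its bases.

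Slc20a2, which encodes PiT-2 (chr8:22476788-22569612, plus strand), stayed between 38.9 and 54.6 CPM in all 19 libraries. Its groups overlapped in every comparison. The estimates were -0.02 ± 0.11 in i-TERTci mice (edgeR adjusted p = 0.933), -0.09 ± 0.14 after ADR in TERT KO/KO mice (0.74) and -0.25 ± 0.12 after ADR in TERT WT/WT mice (0.133).

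The make-up of the cotransporters was compared between libraries, with no test. Slc34a2 (NaPi-IIb), the cotransporter of intestine and lung, was added here from the pathway lists. Summed per kilobase, Slc34a1 supplied 88.1, 96.2 and 95.2% of the CPM of the 5 cotransporters in i-TERTci kidneys, against 96.0 to 96.4% in actin-rtTA+ kidneys. After ADR it supplied 95.6 and 90.8% in TERT KO/KO kidneys and 95.1, 83.01 and 79.8% in TERT WT/WT kidneys, against 95.0 to 95.2% and 95.4 to 95.7% after saline in the same genotypes. The shares were lowest in the libraries with the lowest Slc34a1, and i-TERTci replicate 2 lay within the actin-rtTA+ range. As Slc34a1 is itself most of the sum, this order in part restates its level. The share of Slc34a3 was 1.43 and 1.57% in TERT KO/KO kidneys after ADR, against 3.57 to 3.82% after saline. In TERT WT/WT kidneys it was 2.06 to 2.93% after ADR, against 3.16 to 3.395% after saline. In i-TERTci kidneys it was 2.42 to 2.81%, against 2.54 to 3.105% in actin-rtTA+ kidneys. Slc34a2 itself measured 28.4, 76.1 and 85.4 CPM after ADR in TERT WT/WT mice, against 4.06 to 5.201 CPM after saline, a log2 fold change of 3.77 ± 0.39 (edgeR adjusted p = 0.000657). Slc34a2 in TERT KO/KO mice measured 22.6 and 57.5 CPM after ADR, against 2.82 to 4.22 CPM after saline, at 3.45 ± 0.45 (edgeR adjusted p = 0.00406). It was thus called in both genotypes. In i-TERTci mice it was at 39.5, 4.94 and 20.7 CPM, against 4.22 to 7.36 CPM in actin-rtTA+ mice, where replicate 2 lay within the control range (1.96 ± 0.56, edgeR adjusted p = 0.102, DESeq2 adjusted p = 0.0059).

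**Figure D4:**
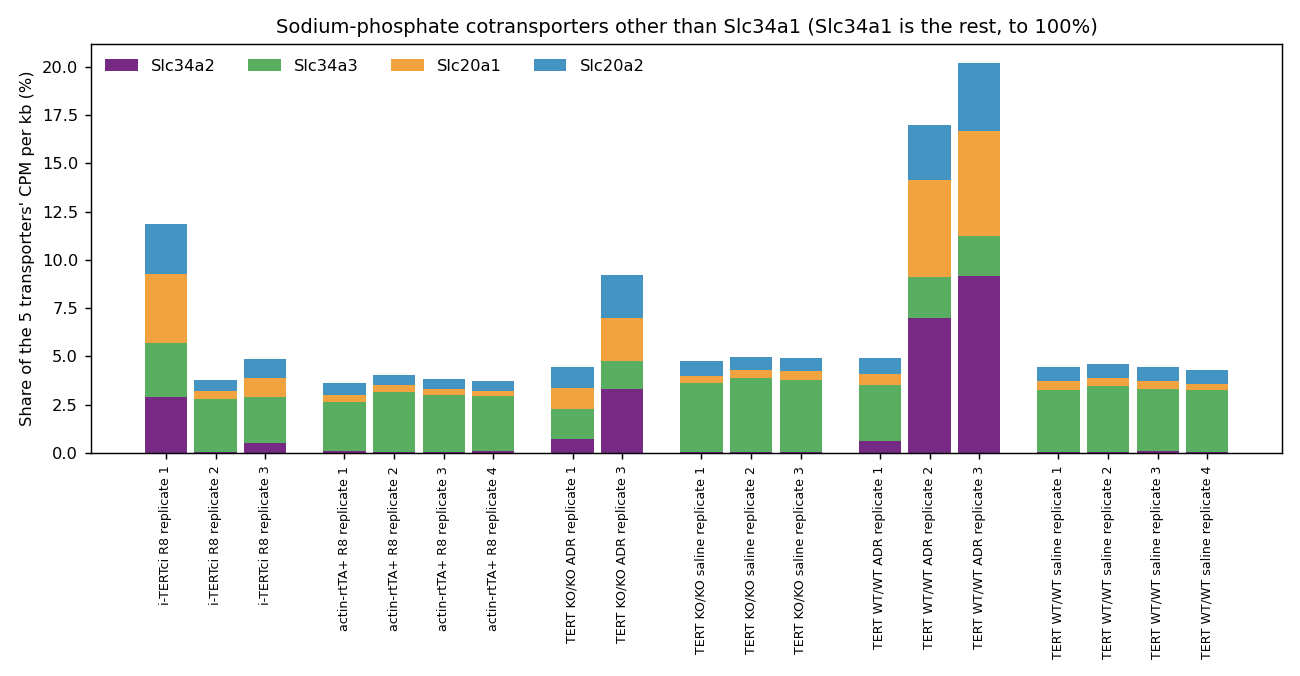
Share of Slc34a2, Slc34a3, Slc20a1 and Slc20a2 in the summed CPM per kilobase of the 5 sodium-phosphate cotransporters, in percent, for each of 19 libraries (bars, stacked from 0). Slc34a1 makes up the rest. These 4 genes were 3.6 to 5% of the sum in actin-rtTA+ and saline kidneys and up to 20.2% in TERT WT/WT ADR replicate 3.

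Pth1r, the receptor for parathyroid hormone (chr9:110722085-110747145, minus strand), was the only 1 of the 10 genes called in both genotypes after ADR. In TERT KO/KO mice it measured 334 and 359 CPM after ADR, against 653, 660.2 and 713 CPM after saline. The groups lay far apart, at -0.96 ± 0.20, or 1.94-fold lower (edgeR adjusted p = 0.0209). The call was lost when any 1 TERT KO/KO library was left out (adjusted p-values up to 0.0907, changes of -1.02 to -0.91). In TERT WT/WT mice it measured 482, 351 and 301 CPM after ADR, against 517, 650.1, 669 and 624 CPM after saline. Every ADR kidney lay below every saline kidney, at -0.71 ± 0.17, or 1.64-fold lower (edgeR adjusted p = 0.01), and the call was lost without ADR replicate 2 (adjusted p = 0.0607). In i-TERTci mice it was at 311, 730 and 476 CPM, against 693, 711, 772 and 682 CPM in actin-rtTA+ mice. Replicate 2 lay within the actin-rtTA+ range and the other kidneys below it, at -0.49 ± 0.27 (edgeR adjusted p = 0.329), or -0.85 without replicate 2 (adjusted p = 0.0256).

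Without TERT, saline kidneys showed no called difference in any of the 10 genes, in a comparison that called 0% of all genes higher and 0.00526% lower. None of the 10 had an unadjusted p under 0.05, as 8.79% of all genes did, and DESeq2 called none of the 10 (0.0526% of all genes higher, 0.0631% lower). The largest estimates were 0.64 ± 0.63 for Cyp24a1 (edgeR adjusted p = 0.739), 0.45 ± 0.45 for Cyp27b1 (0.739) and -0.45 ± 0.28 for Kl (0.616), and 1 gene lay wholly above (Slc34a3) and 1 wholly below (Fgfr1) the TERT WT/WT kidneys, where 6.78% and 6.17% of all genes did. After ADR, TERT KO/KO against TERT WT/WT mice likewise called none of the 10 by edgeR, where 0.0473% of all genes were called higher and 0.0263% lower. Only Cyp24a1 had an unadjusted p under 0.05, as 7.66% of all genes did, and only it lay wholly below, where 8.13% of all genes did, while none lay wholly above, where 8.57% did. DESeq2 called it lower, where 0.347% of all genes were called lower. The interaction of genotype and ADR was called for no gene of the 10 and for 0% of all genes by edgeR, with Cyp24a1 alone of the 10 under an unadjusted p of 0.05, as were 12% of all genes, and DESeq2 called none of the 10. The i-TERTci change minus the TERT WT/WT change was called for none of the 10 either, where 0.00505% of all genes were called higher and 0% lower. Cyp24a1 was again alone under an unadjusted p of 0.05, as were 7.16% of all genes, and DESeq2 called none of the 10.

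Among 14379 genes that averaged 1 CPM or more, those most like each gene over the 19 libraries were found by Pearson's r of log2 CPM, as a description in which all values share their libraries and the contrast of i-TERTci and ADR kidneys with their controls. Kl was closest to Ogdh, a subunit of the 2-oxoglutarate dehydrogenase of mitochondria (r = 0.978), Immt, which shapes the mitochondrial inner membrane (0.976), and the urate exporter Abcg2 (0.972), and most opposed to Pdlim7 (-0.967). Slc34a1 was closest to Fggy (0.986), Fam151a (0.983) and the NADPH oxidase Nox4 (0.982), and most opposed to the tight junction gene Cldn7 (-0.976). Cyp27b1 was closest to Limd1 (0.944), the growth factor Nrg1 (0.925) and the phosphatase Ptpn22 (0.915), and most opposed to Nmnat1, an enzyme of NAD synthesis (-0.937). Cyp24a1 had no gene as close: Fhdc1 (0.791), 1700010I14Rik (0.781) and Aig1 (0.772) led, and Sema3e was the most opposed (-0.852). Within the set, Slc34a1 and Slc34a3 correlated at 0.965, Slc34a3 and Pth1r at 0.937, and Kl and Slc20a1 at -0.904, whereas Cyp24a1 reached no more than 0.435, with Cyp27b1, or -0.534, with Slc34a1.

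The wider pathways were described by 60 other genes in 6 lists, of which 53 were tested in the i-TERTci experiment and 52 in the ADR experiment. ADR in TERT WT/WT mice called 4 of them higher and 17 lower, where 15.2% of all genes were called higher and 12% lower, with a median log2 change of -0.32 against 0.01 for all genes. The count of 17 was 26 without ADR replicate 1, 3 without ADR replicate 2, 9 without ADR replicate 3 and 11 without saline replicate 3 or 4. The TERT KO/KO mice had 3 called higher and 0 lower (median -0.11, all genes 0.01), where 3.83% of all genes were called higher and 1.43% lower. There DESeq2 called 5 higher and 7 lower, against 7.06% and 4.45% of all genes, and 17 had an unadjusted p under 0.05, as did 24.1% of all genes. In i-TERTci mice edgeR called none (median -0.16, all genes 0.02), where 0.00564% of all genes were called higher and 0% lower. DESeq2 called 4 higher and 3 lower there, against 8.52% and 2.38% of all genes, and 15 had an unadjusted p under 0.05, as did 22.4% of all genes. Of the hormones themselves, Pth had no count in any of the 19 libraries and Fgf23 had 2 counts in i-TERTci replicate 3 and none in the others, both named here outside the rule for naming genes.

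The counts of the single lists are descriptions, to be read against the same shares of all genes (15.2% higher and 12% lower in TERT WT/WT, 3.83% higher and 1.43% lower in TERT KO/KO mice). Among the klotho and FGF receptor family, ADR called 1 of 6 genes in TERT WT/WT mice: Fgfr4 fell, with 40.5 to 47.1 CPM after ADR, against 58.0 to 69.3 CPM after saline (-0.52 ± 0.09, edgeR adjusted p = 0.0035). Of 4 genes tested that act on FGF23 or on phosphate and pyrophosphate beside it, 2 fell in the same mice, the FGF23 kinase Fam20c (-0.67 ± 0.16, edgeR adjusted p = 0.0121) and Enpp1, which makes pyrophosphate (-0.69 ± 0.17, adjusted p = 0.0129). None was called by edgeR in TERT KO/KO or i-TERTci mice in either list. Of the 6 klotho and FGF receptor family genes, DESeq2 called 3 lower in TERT KO/KO mice, against 4.45% of all genes. It called 2 lower in TERT WT/WT mice, against 14.4% of all genes, and none in i-TERTci mice. In TERT KO/KO mice 3 of the 6 had an unadjusted p under 0.05 by edgeR, as did 24.1% of all genes. They were Fgfr3 (0.00318), Lctl (0.00368) and Fgfr4 (0.00643).

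Of the genes for vitamin D synthesis, uptake and receptor partners, 4 of 11 fell and 1 rose after ADR in TERT WT/WT mice. The endocytic receptors that recover vitamin D bound to its carrier protein from the filtrate fell. Lrp2 (megalin) measured 1688, 525 and 540.3 CPM after ADR, against 2303 to 3280 CPM after saline (-1.59 ± 0.37, edgeR adjusted p = 0.00964), and Cubn (cubilin) measured 429, 182 and 182 CPM, against 503 to 715 CPM (-1.23 ± 0.28, edgeR adjusted p = 0.00924). Both are also among the proximal tubule markers. Dhcr7, which diverts the vitamin D precursor to cholesterol, fell as well (-0.60 ± 0.11, edgeR adjusted p = 0.00327). Gc, the carrier protein of vitamin D, was the gene that rose (1.34 ± 0.32, edgeR adjusted p = 0.0116). None of these was called in TERT KO/KO mice, where Gc had the lowest adjusted p (1.35 ± 0.38, edgeR adjusted p = 0.0616).

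Of 15 genes of renal calcium and magnesium transport, 6 fell and 1 rose after ADR in TERT WT/WT mice, where 12% of all genes fell and 15.2% rose. The gene that rose, the calcium channel Trpv6, was at 4.38, 8.08 and 8.72 CPM, against 2.17 to 2.36 CPM after saline (1.63 ± 0.21, edgeR adjusted p = 0.00093). It also rose in TERT KO/KO mice, to 5.40 and 6.27 CPM, against 2.48 to 2.76 CPM after saline (1.18 ± 0.25, edgeR adjusted p = 0.0229). Egf, a growth factor of the distal nephron, fell by 1.53 ± 0.28 (edgeR adjusted p = 0.00327) and Calb1, the calcium-binding protein of the distal convoluted tubule, by 0.97 ± 0.28 (adjusted p = 0.0236) on the log2 scale in TERT WT/WT mice.

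Of 10 other genes of phosphate transport and its scaffolds, 4 fell and 1, Slc34a2, rose after ADR in TERT WT/WT mice. Pdzk1, a scaffold of the brush border, fell by 1.11 ± 0.26 (edgeR adjusted p = 0.0106) and Xpr1, the phosphate exporter, by 0.66 ± 0.15 (adjusted p = 0.00919). Slc34a2 and 1 other gene rose in TERT KO/KO mice and none fell. The other was Sgk1, a kinase induced by steroid hormones and cell stress, with 215 and 223 CPM after ADR, against 59.8 to 69.4 CPM after saline (1.73 ± 0.28, edgeR adjusted p = 0.00668). In TERT WT/WT mice Sgk1 was at 67.3, 30.0 and 74.3 CPM after ADR, against 61.5 to 83.4 CPM after saline (-0.35 ± 0.24, edgeR adjusted p = 0.283). It was the only gene of the lists called between the genotypes after ADR, at 1.94 ± 0.28 (edgeR adjusted p = 0.0362), where 0.0473% of all genes were called higher, while the interaction, 2.08 ± 0.37, passed by DESeq2 (adjusted p = 9.4e-05) and not by edgeR (adjusted p = 0.118). The call between the genotypes was lost with limma voom, with the replicate block, with only the groups compared in the fit, with the liver-like library kept, and when TERT KO/KO ADR replicate 1 or any 1 saline library was left out. In PTH signalling, 1 of 6 genes was called in TERT WT/WT mice, Arrb2, an arrestin, which rose by 1.07 ± 0.21 (edgeR adjusted p = 0.00437).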

How the data were processed

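The 20 libraries were made from whole-kidney RNA. According to the methods and the submitters' processing notes, reads were checked with FastQC, trimmed with Trimmomatic and aligned with STAR to mm10. The authors deposited 1 table of raw counts per gene for all libraries, not normalised. The counting tool, its annotation and its strand setting are not given in the sources used here. All 20 columns were mapped to samples by their labels. Of 55471 gene identifiers, 55230 matched GENCODE M21 and 241 did not.

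The 2 experiments were fitted separately with edgeR (4.0.16, R 4.3.3): filterByExpr, TMM scaling, a robust quasi-likelihood fit with a term per group, and Benjamini-Hochberg adjustment over all genes tested (17745 in the i-TERTci and 19023 in the ADR experiment). Only the i-TERTci change minus the TERT WT/WT change came from a joint fit of 19 libraries (19783 genes). Calls were made at an adjusted p under 0.05. Levels are CPM scaled by TMM, and correlations used log2 CPM with a prior count of 2. The scripts were tested on simulated data. Libraries held 39323498 to 48399322 counts (median 45705605.5), and no 2 replicates of a group held the same counts within sampling noise. The sources used here do not say that each library came from a separate mouse, so p-values measure the spread between these libraries.

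The 10 genes were named in every comparison, and for 4 genes the 3 most and the 1 least alike. The rule for the pathway lists was the up to 3 genes of lowest unadjusted p per list and comparison. Of these, mostly genes called by edgeR after ADR were named. Members and lists were chosen with earlier results of these data known. Alternatives were DESeq2 (1.42.0), limma voom (3.58.1) with quality weights, DESeq2 size factors in edgeR, no filter, a mean of at least 1 CPM, a replicate block, only the groups compared, the liver-like library kept, and each library left out in turn. Promoter windows came from RefSeq (GRCm38.p6), which held 7 of the 10 genes.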

Additional observations from a re-analysis of the deposited data

Results flagged for a closer look

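In actin-rtTA+ replicate 1, Kl measured 732.6 CPM, against 470.1 to 505.1 CPM in the other 3 actin-rtTA+ kidneys. Its gap to the nearest of them was 0.867 of the range of the group, above Dixon's critical value of 0.829 for 4 samples. Of 20 combinations of gene and group that were large enough for this test it was the only 1 to pass, and chance passes about 1 in 20. Slc20a2 measured 77.21 CPM by raw library total in the liver-like TERT KO/KO ADR library that was left out, against at most 52.28 CPM in any saline kidney.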

How the results depend on the processing

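Over 1375 refits of the 70 fold changes of the 10 genes, 1253 kept their direction and their side of the threshold, 19 lost a call and 43 gained one. The other 60, of 26 of the fold changes, changed sign, and 0 of these were called before or after. Of the 10 genes, DESeq2 called 2 higher and 1 lower in i-TERTci kidneys and 1 lower between genotypes after ADR, where edgeR called 0. Limma voom with quality weights called 3 higher and 4 lower in i-TERTci kidneys, 5 lower after ADR in TERT WT/WT and 2 lower in TERT KO/KO mice, 1 lower between the saline groups, and 4 higher and 1 lower for the i-TERTci change minus the TERT WT/WT change. With no filter 1 gene was called higher after ADR in TERT WT/WT mice, not 3. With the liver-like library kept, 1 was called higher and 0 lower in TERT WT/WT and 0 lower in TERT KO/KO mice. With only the groups compared in the fit, ADR in TERT KO/KO mice called 1 higher and 4 lower. Leaving out 1 library each gave 0 to 2 higher and 0 to 2 lower in i-TERTci kidneys (2 and 2 without i-TERTci replicate 2), 1 to 3 higher (1 when TERT WT/WT ADR replicate 2 or replicate 3 was missing) and 1 to 5 lower (5 without TERT WT/WT ADR replicate 1, 1 without replicate 2) in TERT WT/WT mice, and 0 to 2 higher and 0 to 4 lower in TERT KO/KO mice (2 and 4 without TERT WT/WT ADR replicate 1, 0 lower without any 1 TERT KO/KO library). Between genotypes after ADR and for the interaction it gave 0 to 1 higher, the 1 being Slc34a1 without TERT WT/WT ADR replicate 1 (1.47, edgeR adjusted p = 0.0094, and 1.504, adjusted p = 0.0351). Without TERT WT/WT ADR replicate 1 the ADR changes in TERT KO/KO mice stayed at -2.44 for Slc34a3, -0.84 for Kl and -1.18 for Slc34a1. The groups of 1 experiment share 1 estimate of the spread in these fits. The cause of the differences between settings was not tested.

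The estimates that changed sign, none of them called, were as follows on the log2 scale. With the liver-like library kept, TERT KO/KO against TERT WT/WT after ADR was -0.52 for Kl, -0.45 for Fgfr1, -0.41 for Slc34a1 and 0.0055 for Slc20a1, the interaction was -0.077 for Kl, -0.30 for Fgfr1, -0.42 for Vdr and -0.38 for Slc34a1, and ADR in TERT KO/KO mice was -0.18 for Fgfr1 and 1.02 for Slc20a2. With limma voom, the genotype difference after ADR was -0.003 for Fgfr1, 0.48 for Slc34a3 and 0.011 for Pth1r, the interaction was 0.35 for Slc34a3, the i-TERTci change was 0.11 for Slc20a2, and the i-TERTci change minus the TERT WT/WT change was 0.086 for Cyp27b1. With the replicate block, the genotype difference was 0.021 for Cyp27b1 and -0.0013 for Kl after ADR and -0.036 for Slc20a1 after saline. Leaving out 1 library each gave i-TERTci changes of -0.37 to 0.29 for Cyp24a1 and -0.10 to 0.016 for Slc20a2, and ADR changes in TERT KO/KO mice of -0.32 to 0.012 for Vdr and -0.19 to 0.022 for Slc20a2. It gave genotype differences after saline of -0.032 to 0.71 for Cyp27b1, -0.078 to 0.0082 for Slc34a1, -0.024 to 0.12 for Slc20a1 and -0.17 to 0.024 for Slc20a2. After ADR these were -0.17 to 0.56 for Kl, -0.062 to 0.18 for Fgfr1, -0.37 to 1.47 for Slc34a1, -1.27 to 0.80 for Slc34a3, -0.0029 to 0.19 for Slc20a2 and -0.26 to 0.087 for Pth1r. For the interaction they were -0.011 to 0.32 for Vdr, -0.34 to 1.504 for Slc34a1 and -1.43 to 0.64 for Slc34a3, both upper ends for Slc34a1 being the calls given above. For the i-TERTci change minus the TERT WT/WT change they were -0.54 to 0.38 for Cyp27b1, -0.10 to 0.14 for Vdr, -0.43 to 0.0084 for Slc20a1 and -0.13 to 0.47 for Pth1r.

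Same-numbered samples did not deviate together in most comparisons (correlations of -0.463 to 0.199), but both pairs of TERT KO/KO ADR and TERT WT/WT ADR samples did (0.481 and 0.354). Deviations were taken from group means, so those of the 2 TERT KO/KO ADR libraries mirror each other and these 2 correlations are not independent. With 2 such pairs, the replicate numbers were not taken as pairing the samples. With the replicate block, ADR in TERT WT/WT mice called 3 of the 10 genes lower, Slc34a1 being the added 1 (-1.73, edgeR adjusted p = 0.0418). For the pathway genes, the block removed the call of Sgk1 between genotypes after ADR.

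Of the pathway genes, limma voom called 9 higher and 14 lower in i-TERTci kidneys, where edgeR called 0, and 8 higher and 31 lower in TERT WT/WT mice given ADR, where edgeR called 4 and 17. Without i-TERTci replicate 2 edgeR called 6 higher and 8 lower in i-TERTci kidneys. For ADR in TERT KO/KO mice (3 higher, 0 lower), only the groups compared gave 5 and 5, and leaving out TERT WT/WT ADR replicate 1 gave 6 and 11. With the liver-like library kept, 2 were called higher and 1 lower in TERT WT/WT mice and 0 higher in TERT KO/KO mice.

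The fit with only the groups compared was not run for the interactions, which need all groups. Levels by raw library totals moved by less than 1 SD in 49 of 60 combinations of gene and group and by more in 11.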
